A study of Rattus norvegicus with 151 samples.

Results

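Acsm2, Acsm3, Acsm5 and Glyat, genes of medium-chain acyl-CoA synthesis and glycine conjugation, are 4 of the 14218 genes named on the array. They were selected by gene symbol from results already known on these samples, as genes whose products activate and conjugate carboxylic acids, and each was read by 1 probe set (NCBI gene 246263 for Acsm2, 24763 for Acsm3, 361637 for Acsm5 and 293779 for Glyat). The study gave male Harlan Sprague-Dawley rats of 6 to 8 weeks 5 daily oral gavages of a chemical of the West Virginia spill in corn oil and measured liver and kidney RNA on Affymetrix Rat Genome 230 2.0 arrays. MCHM and crude MCHM were each tested at 0.1 mg/kg, at 1 or 10 mg/kg, and at 100, 300 or 500 mg/kg. PPH had groups at 1 or 10 mg/kg, at 100 or 500 mg/kg and, as its highest dose, at 1000 mg/kg, and each chemical had its own vehicle rats given corn oil alone. MCHM is 4-methylcyclohexanemethanol, a primary alcohol, crude MCHM is the technical mixture in which it is the main component, and PPH is propylene glycol phenyl ether. Of 151 arrays 150 were used, 81 of liver and 69 of kidney, in 40 groups of 2 to 5 rats. Livers numbered 3 or 4 per dose and 4 or 5 per vehicle group, and kidneys 2 to 4 per dose and 3 to 5 per vehicle group, with pairs only in the 4 lower dose groups of crude MCHM kidneys.

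The acyl-CoA synthetases of the ACSM family are mitochondrial enzymes that join medium-chain fatty acids, and carboxylic acids of drugs and food such as benzoate, to coenzyme A. Glycine N-acyltransferase, the product of Glyat, then transfers the acyl group from coenzyme A to glycine, and the product, such as hippurate from benzoate, leaves in the urine. Both steps are known from liver and kidney, where proximal tubule cells carry them, and rat Acsm2 was described early as a kidney-specific protein, while Acsm3 was described as the SA gene of hypertensive rats.

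The 4 genes all lie on chromosome 1 of the rat. In the RefSeq annotation of assembly GRCr8 Acsm5 and Acsm2 stand next to each other, both inside the Pdilt gene model, Acsm3 lies farther along inside the Eri2 gene model, which runs on the opposite strand, and Glyat follows Glyatl1. The RefSeq windows from 250 bases before to 50 bases after the start are shown for the synthetases because Acsm5 and Acsm2 are neighbours whose liver values varied together. Capitals mark the nuclear receptor hexamers AGGTCA and AGTTCA on either strand (a hit on the opposite strand reads TGACCT or TGAACT). Each line is 5′ to 3′ on GRCr8.
Acsm2 (chr1:183347455-183347754, plus strand): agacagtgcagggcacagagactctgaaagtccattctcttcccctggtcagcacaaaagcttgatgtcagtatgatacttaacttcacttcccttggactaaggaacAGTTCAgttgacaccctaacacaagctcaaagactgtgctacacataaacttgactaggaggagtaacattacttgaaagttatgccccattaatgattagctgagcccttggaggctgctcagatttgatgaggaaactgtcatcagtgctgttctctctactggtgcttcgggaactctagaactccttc
Acsm5 (chr1:183302259-183302558, plus strand): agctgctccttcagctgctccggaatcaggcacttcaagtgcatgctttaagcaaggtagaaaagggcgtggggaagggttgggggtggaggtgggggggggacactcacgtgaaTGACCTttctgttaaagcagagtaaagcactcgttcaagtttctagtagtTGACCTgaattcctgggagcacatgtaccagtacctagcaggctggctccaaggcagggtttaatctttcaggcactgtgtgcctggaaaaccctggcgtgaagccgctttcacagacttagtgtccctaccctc
Acsm3 (chr1:183564402-183564701, plus strand): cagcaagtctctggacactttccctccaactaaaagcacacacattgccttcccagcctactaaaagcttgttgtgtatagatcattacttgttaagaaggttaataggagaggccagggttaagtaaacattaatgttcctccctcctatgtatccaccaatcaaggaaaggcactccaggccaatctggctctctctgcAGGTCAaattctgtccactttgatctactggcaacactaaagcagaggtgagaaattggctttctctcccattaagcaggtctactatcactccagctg
The Acsm5 window held AGGTCA at 2 places, both on the opposite strand, the Acsm3 window held it once on the gene's own strand, and the Acsm2 window held AGTTCA once and AGGTCA nowhere. Of the 33469 RefSeq windows of the same length, 16.2% held AGGTCA and 14.5% held AGTTCA. Direct repeats of AGGTCA spaced by 1 base (in 0.0538% of all windows) or by 4 bases (0.00598%), whose hexamers also count as single matches, and the antioxidant response motif TGACNNNGC (12.1%) were searched on both strands and were not found in the 3 windows. GCGTG, the dioxin response core, present in 29.7% of all windows, occurred at 2 places in the Acsm5 window. These motifs were chosen after the expression values were seen, and a match describes letters, not a bound site.

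All values are log2 units from the authors' RMA processing, in which 1 unit is a doubling of probe set signal. Array medians lay between 5.215 and 5.376, and the median correlation of an array with arrays of the same chemical and tissue was 0.987 to 0.995. One kidney array, MCHM 0.1 mg/kg replicate 13, was left out as row-shifted. Its median correlation with other kidneys was 0.401 as deposited and 0.952 after a shift by 1 row, against at least 0.986 for the others. That shift did not restore every value: Acsm3 became 6.85, against 11.70 to 11.96 in the other kidneys of its group. The 7 hepatocyte markers measured averaged 3.83 to 7.17 in kidneys and 13.8 to 13.9 in every liver, and the 9 proximal tubule markers averaged 11.33 to 12.02 in kidneys and 6.27 to 6.75 in livers, so each array carried the markers of its labelled tissue. In 2 kidneys the hepatocyte markers averaged above 6, one given 1 mg/kg crude MCHM (7.17) and one MCHM vehicle kidney (replicate 4, 6.41). In whole tissue, fewer cells of a type and less RNA per cell cannot be told apart.

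In vehicle rats 3 of the 4 genes had their higher level in kidney. Acsm2 averaged 12.99 ± 0.09 in 13 vehicle kidneys (lowest 12.86, median 13.01, highest 13.15) and 6.75 ± 0.39 in 14 vehicle livers (lowest 6.10, median 6.83, highest 7.25; mean ± SD throughout), a 75.6-fold difference between tissues. Kidney and liver values of Acsm2 lay far apart, with no overlap.

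Acsm3 averaged 11.49 ± 0.21 in vehicle kidneys (11.05, 11.52 and 11.76 as lowest, median and highest) and 9.29 ± 0.20 in vehicle livers (8.97, 9.28 and 9.63), a 4.61-fold difference. Glyat averaged 11.15 ± 0.16 in vehicle kidneys (10.87, 11.15 and 11.39) and 9.36 ± 0.14 in vehicle livers (9.15, 9.36 and 9.63), a 3.44-fold difference. Neither gene's tissue ranges overlapped. Acsm5 had the opposite order: 6.75 ± 0.32 in vehicle kidneys (6.08, 6.85 and 7.26) and 7.68 ± 0.54 in vehicle livers (6.56, 7.78 and 8.44), with overlapping ranges. Whether both tissues were normalised together was not stated in the sources used here, so the tissue differences are given without a test. Their neighbour Acsm1, another medium-chain synthetase, was brighter in liver (9.19 ± 0.19 in kidneys and 12.57 ± 0.08 in livers).

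**Figure D1:**
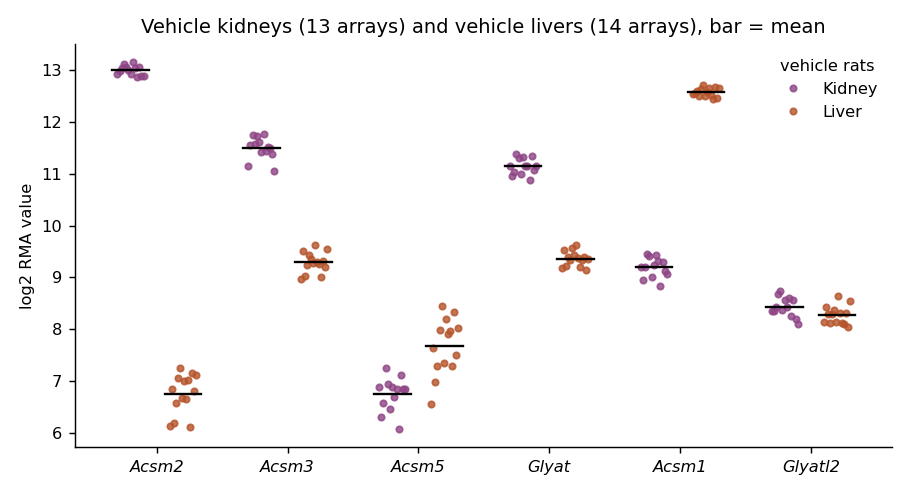
Log2 RMA values (y axis) of the 4 genes and of Acsm1 and Glyatl2 (x axis) in vehicle rats, 1 point per array and a bar at the mean, kidney left of liver for each gene. Acsm2, Acsm3 and Glyat are higher in kidney with no overlap, Acsm1 is higher in liver, and the ranges of Acsm5 and of Glyatl2 overlap between tissues.

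Acsm2 stood higher in the liver at the highest dose of each of the 3 chemicals. At 500 mg/kg MCHM the 4 livers had 7.37, 7.65, 7.69 and 7.75, against 6.10, 6.58, 6.66, 6.85 and 7.00 in the 5 MCHM vehicle livers. Every treated liver was above every vehicle liver, and the difference was 0.97 log2 units (95% interval 0.52 to 1.43), or 1.97-fold. Since Acsm2 was already known to be high in this comparison, it is described without a test. Of 11335 genes tested there 0.512% passed the threshold of an adjusted p under 0.05, and nothing is read from that beside Acsm2. How many of all genes had groups without overlap was not counted, here or below. A lack of overlap therefore only describes the values.

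With crude MCHM at 500 mg/kg, Acsm2 had 7.51, 7.85, 7.92 and 7.94 in 4 livers, against 6.82, 7.01, 7.06 and 7.11 in 4 vehicle livers. The groups did not overlap. The change was 0.80 (SE 0.20, 95% interval 0.38 to 1.22; 1.75-fold) and missed the threshold (limma with Benjamini-Hochberg adjustment over all genes tested, adjusted p = 0.0657, where 0.675% of genes passed). With array weights in the same model the change was 0.83 with an adjusted p of 0.0266, and over all the alternatives tried the adjusted p ranged between 0.0266 and 0.158.

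With PPH at 1000 mg/kg, Acsm2 had 7.83, 7.84, 8.20 and 8.53 in 4 livers, against 6.14, 6.19, 6.64, 7.16 and 7.25 in 5 vehicle livers. All 4 treated livers lay above all vehicle livers, although the vehicle livers of this set were spread over more than 1 unit. Acsm2 rose by 1.43 (SE 0.22, 95% interval 0.97 to 1.89; 2.69-fold; limma adjusted p = 0.0015), in a comparison in which 1.75% of genes passed. Between 1.29 and 1.57 was found when each array in turn was left out, with adjusted p-values up to 0.0118. Earlier results on these data were known when the genes were picked, so a call here is not independent support for a response of the gene.

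Below the highest doses none of the 14 comparisons of Acsm2 with vehicle passed in liver. The MCHM group means were 6.64 in vehicle livers, 6.68 at 0.1 mg/kg, 7.10 at 1 mg/kg, 7.02 at 10 mg/kg, 7.03 at 100 mg/kg, 7.48 at 300 mg/kg and 7.61 at 500 mg/kg, with SDs of 0.17 to 0.49. At 300 mg/kg the 4 MCHM livers had 6.93, 7.41, 7.77 and 7.80, 3 of them above all vehicle livers. Each group overlapped its neighbour in dose, so the order of adjacent means is not larger than the spread between rats.

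For crude MCHM the Acsm2 means over the same doses were 7.00, 6.78, 7.03, 6.73, 6.88, 7.51 and 7.80, vehicle livers included, and all 4 livers at 300 mg/kg (7.17, 7.31, 7.43 and 8.12) were above the 4 vehicle livers. That change of 0.51 did not pass (adjusted p = 0.236, where 1.01% of genes passed). For PPH the means were 6.67 in vehicle livers, 7.05 at 1 mg/kg, 6.99 at 10 mg/kg, 7.02 at 100 mg/kg, 7.09 at 500 mg/kg and 8.10 at 1000 mg/kg. The step between 500 mg/kg (6.82, 7.05, 7.11 and 7.38) and 1000 mg/kg had no overlap, while the groups up to 500 mg/kg overlapped each other.

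As a linear trend per step of the ranked doses, Acsm2 in liver rose by 0.13 with crude MCHM (SE 0.03, adjusted p = 0.0143; 1.91% of genes passed) and by 0.21 with PPH (SE 0.04, adjusted p = 0.00684; 1.32% passed). The MCHM slope of 0.16 (SE 0.03) is given as a description, beside 2.38% of genes with a trend there. A trend over ranks also takes up a change confined to the top doses.

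**Figure D2:**
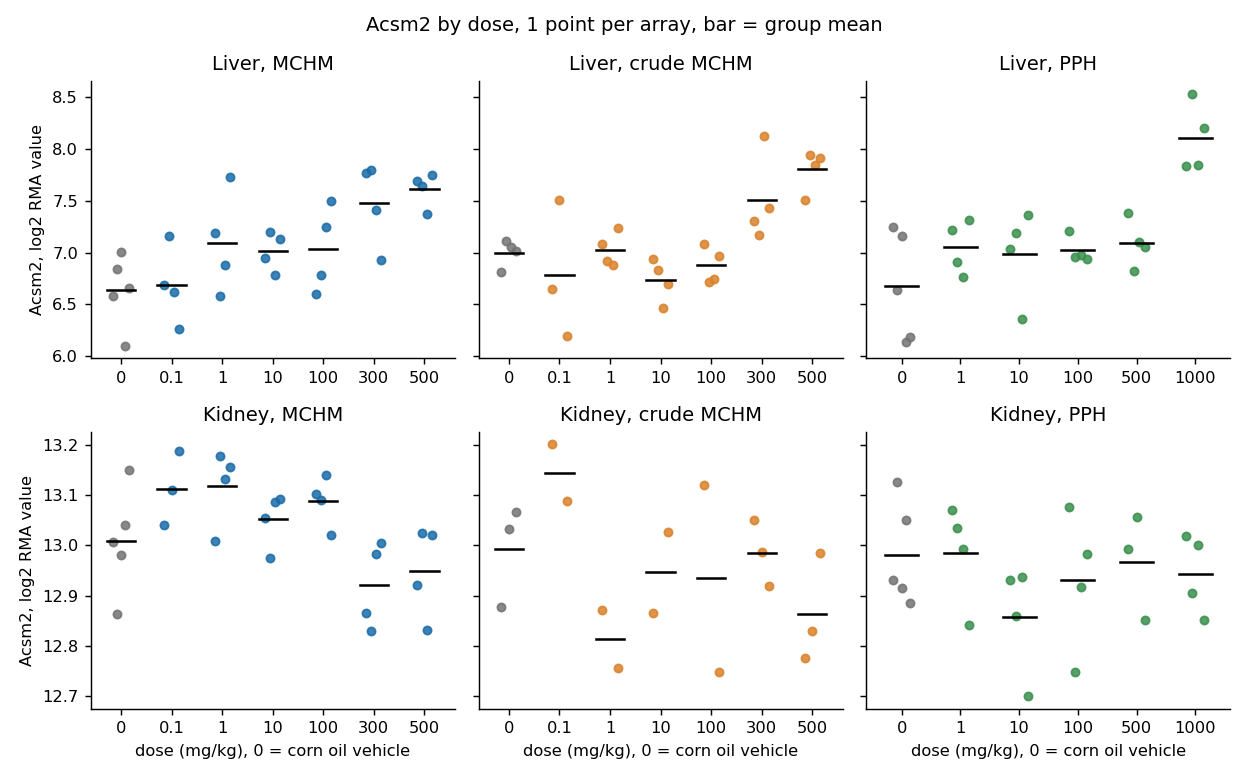
Acsm2 log2 RMA value (y axis, own range for each tissue) against dose in mg/kg (x axis, 0 for vehicle), 1 point per array and a bar at the group mean, liver in the upper row and kidney in the lower row. Liver values at 500 mg/kg MCHM, 500 mg/kg crude MCHM and 1000 mg/kg PPH lie above all vehicle livers of their set, while kidney values span only 12.70 to 13.20.

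Kidney Acsm2 passed at no dose of any chemical. At the highest doses they were 12.83, 12.92, 13.02 and 13.02 with MCHM, against 12.86 to 13.15 in its 5 vehicle kidneys (median 13.01). They were 12.78, 12.83 and 12.98 with crude MCHM, against 12.88, 13.03 and 13.07 in its vehicle kidneys. With PPH the 4 kidneys lay between 12.85 and 13.02 (median 12.95), against 12.89 to 13.13 in the 5 vehicle kidneys (median 12.93). Treated and vehicle kidneys overlapped in all 3 sets, and the changes were -0.06, -0.13 and -0.04 (95% intervals -0.18 to 0.06, -0.35 to 0.09 and -0.19 to 0.12; adjusted p between 0.608 and 0.864). The share of genes that passed in these kidney comparisons was 0.0177% for MCHM, 0% for crude MCHM and 2.03% for PPH, and the kidney trends had 0.124%, 0% and 1.58%.

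The dose changes of Acsm2 were then compared between tissues. Acsm2 stood at the 99.6th percentile of genes in vehicle kidneys and at the 53.9th in vehicle livers. The part of these levels in the differences was not tested. At 1000 mg/kg PPH the kidney change minus the liver change was -1.47 (SE 0.24, 95% interval -1.96 to -0.98; limma adjusted p = 0.000763, where 0.749% of genes passed). For crude MCHM at 500 mg/kg that difference was -0.93 (95% interval -1.48 to -0.38) and did not pass (adjusted p = 0.121; 0.0587% passed). For MCHM it was -1.03 (-1.52 to -0.55), given as a description because the liver side was known beforehand (0.0759% of genes passed). For Acsm3, Acsm5 and Glyat none of the tissue differences passed with limma, and 1 of these 9 had an unadjusted p under 0.05 (Acsm3 with crude MCHM, -0.40, adjusted p = 0.359). Over all genes, 971 of 11863 for MCHM, 1521 of 11918 for crude MCHM and 1614 of 11884 for PPH were under that unadjusted threshold.

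Acsm5, the neighbouring synthetase, had higher means at the top doses in liver without a call. At 500 mg/kg MCHM the 4 livers had 8.04, 8.11, 8.12 and 8.47, against 7.28, 7.29, 7.34, 7.65 and 8.21 in vehicle livers. One vehicle liver lay inside the treated range, and the change was 0.63 (95% interval 0.10 to 1.17; unadjusted p = 0.0221, limma adjusted p = 0.268). With PPH at 1000 mg/kg it had 8.09, 8.32, 8.40 and 8.55, against 6.56, 6.98, 7.91, 8.32 and 8.44 in vehicle livers, a change of 0.70 (-0.05 to 1.44; adjusted p = 0.381) that lay between 0.42 and 0.90 as each array was left out. The vehicle spread (SD 0.83) was the widest of any vehicle group of these 4 genes.

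Crude MCHM at 500 mg/kg gave Acsm5 levels of 8.00, 8.06, 8.12 and 8.26 in liver, against 7.51, 7.97, 7.99 and 8.03 in vehicle livers, a change of 0.23 (-0.15 to 0.62; adjusted p = 0.641). At 10 and 100 mg/kg crude MCHM the means were lower than vehicle by 0.39 and 0.42 (values 7.27 to 7.58 and 7.10 to 7.97), with adjusted p-values of 0.751 and 0.63. In kidney the top-dose changes of Acsm5 were 0.26 with MCHM (adjusted p = 0.516), -0.01 with crude MCHM and 0.01 with PPH. At 500 mg/kg MCHM the kidneys had 6.54, 6.54, 6.61 and 7.06, against 6.08 to 6.70 in vehicle kidneys (median 6.47), and without the kidney at 7.06 the change was 0.14.

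**Figure D3:**
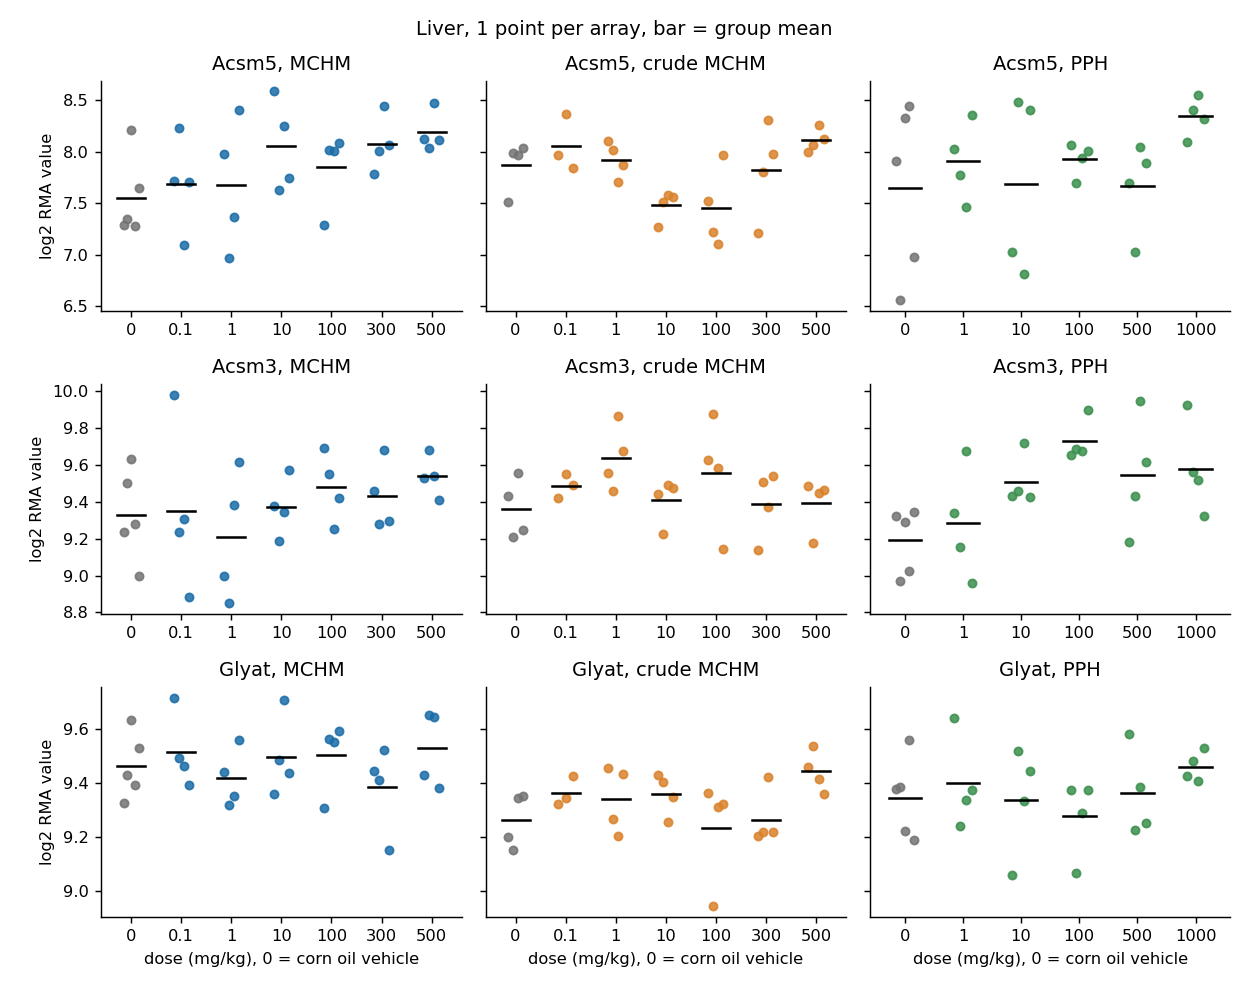
Liver log2 RMA values (y axis, own range for each gene) of Acsm5, Acsm3 and Glyat against dose in mg/kg (x axis, 0 for vehicle) for each chemical, 1 point per array and a bar at the group mean. Most dose groups overlap their vehicle group, and the 5 PPH vehicle livers spread between 6.56 and 8.44 for Acsm5.

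Acsm3 differed from its vehicle groups in liver by little at the top doses. With PPH at 1000 mg/kg it had 9.32, 9.52, 9.56 and 9.92, against 8.97, 9.03, 9.29, 9.33 and 9.34 in vehicle livers, a change of 0.39 (0.08 to 0.69; adjusted p = 0.208). At 100 mg/kg PPH all 4 livers (9.65, 9.67, 9.68 and 9.90) were above all vehicle livers, and so were those at 10 mg/kg (9.42, 9.43, 9.46 and 9.72). The share of all genes without overlap was not counted there either. These changes of 0.53 and 0.32 did not pass either (adjusted p = 0.267 and 0.474, where 0% and 0.00882% of genes passed), and the level did not climb further with dose. The top-dose changes with MCHM and crude MCHM were 0.21 and 0.03 (adjusted p = 0.631 and 0.949).

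In kidney the top-dose values of Acsm3 had different signs between sets, and none passed. At 500 mg/kg crude MCHM it had 10.88, 11.10 and 11.44, against 11.37, 11.43 and 11.73 in vehicle kidneys, a change of -0.37 (-0.66 to -0.09; adjusted p = 0.317). The 9 proximal tubule markers had a median change of -0.30 in the same comparison, against -0.05 over all genes, with none called, and their part in the Acsm3 value was not tested. At 1000 mg/kg PPH the kidneys had 11.46, 11.70, 11.76 and 11.88, against 11.05, 11.15, 11.42, 11.49 and 11.58 in vehicle kidneys, a change of 0.36 (-0.04 to 0.76; adjusted p = 0.379). With MCHM at 500 mg/kg the values were 11.09, 11.45, 11.68 and 11.98, against 11.52 to 11.76 in vehicle kidneys (median 11.61), so that 2 treated kidneys lay below the vehicle range, 1 within it and 1 above it, and the change was -0.09.

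Glyat, the glycine conjugating enzyme itself, was the steadiest of the 4 genes in liver, with a within-group SD of 0.14. At the top doses it had 9.38, 9.43, 9.65 and 9.65 with MCHM, against 9.33 to 9.63 in vehicle livers (median 9.43). It had 9.36, 9.42, 9.46 and 9.54 with crude MCHM, against 9.15, 9.20, 9.34 and 9.35, and 9.41, 9.43, 9.48 and 9.53 with PPH, against 9.19 to 9.56 (median 9.38) in vehicle livers. Only the crude MCHM livers lay wholly above their vehicle livers, by 0.18 (0.01 to 0.35; adjusted p = 0.342). The MCHM and PPH changes were 0.07 and 0.12 (adjusted p = 0.811 and 0.66), with intervals of -0.12 to 0.25 and -0.10 to 0.33.

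Kidney Glyat had top-dose changes of 0.16 with MCHM (0.04 to 0.27; values 11.07, 11.15, 11.17 and 11.23, against 10.87 to 11.14 with a median of 10.99 in vehicle kidneys), -0.05 with crude MCHM and 0.05 with PPH. None passed (adjusted p = 0.36, 0.854 and 0.807). Of all 4 genes in kidney at the top doses, 0 of 12 changes passed with limma and 3 had an unadjusted p under 0.05. Over all genes, 1047 of 11277 with MCHM, 1406 of 11216 with crude MCHM and 1739 of 11264 with PPH were under that unadjusted threshold.

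Below the top doses there were 56 comparisons of these genes with vehicle in each tissue. None passed with limma in kidney or liver, and 3 in kidney and 8 in liver had an unadjusted p under 0.05. Over all genes, kidney counts under that unadjusted threshold lay between 324 of 11264 (PPH 1 mg/kg) and 1007 of 11277 (MCHM 1 mg/kg). Liver counts lay between 432 of 11335 (MCHM 100 mg/kg) and 1603 of 11402 (crude MCHM 300 mg/kg). In the MCHM and crude MCHM livers up to 100 mg/kg no gene of the whole array passed (0%), in MCHM livers at 300 mg/kg 0.0265% passed, in PPH livers at 500 mg/kg 0.0882%, and in kidneys 0% at each of these doses. Liver changes of Acsm2 at these doses ranged between -0.27 and 0.84, those of Acsm3 between -0.12 and 0.53, those of Acsm5 between -0.42 and 0.52 and those of Glyat between -0.08 and 0.10. Kidney changes ranged between -0.18 and 0.15 for Acsm2, -0.37 and 0.51 for Acsm3, -0.24 and 0.23 for Acsm5 and -0.15 and 0.13 for Glyat.

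**Figure D4:**
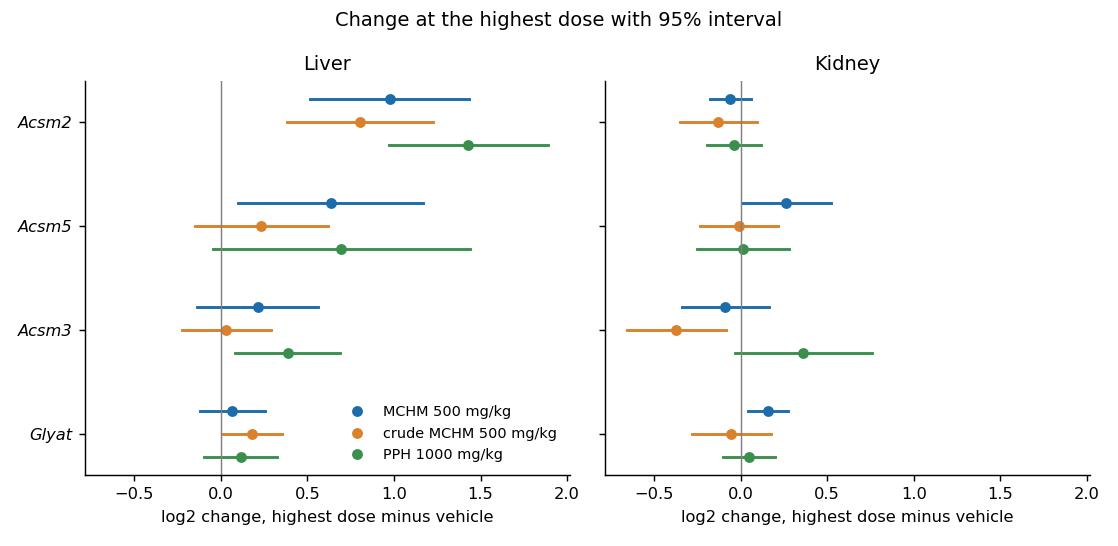
Log2 change at the highest dose against the set's own vehicle (x axis) for each gene (rows), with 95% intervals from limma, liver on the left and kidney on the right, colours for the 3 chemicals. The liver intervals of Acsm2 with crude MCHM and PPH lie above 0, and the 3 kidney intervals of Acsm2 include 0. Intervals also exclude 0 in liver for Acsm5 with MCHM, Acsm3 with PPH and Glyat with crude MCHM. In kidney they do so for Acsm5 and Glyat with MCHM and for Acsm3 with crude MCHM. None of these passed after adjustment over all genes, nor did Acsm2 with crude MCHM in liver. The liver interval of Acsm2 with MCHM is drawn as a description, because that value was known beforehand.

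The chemicals were compared at matched doses as differences of their changes from vehicle, in 4 pairs per tissue, with p-values also adjusted over the 4 pairs for each gene. In liver the Acsm2 change was larger with MCHM than with crude MCHM by 0.17 at 500 mg/kg (-0.48 to 0.82) and by 0.33 at 300 mg/kg (-0.32 to 0.98). The difference between PPH and MCHM at 500 mg/kg was -0.56 (-1.19 to 0.07), and that between PPH and crude MCHM was -0.39 (-1.03 to 0.26; p over the 4 pairs = 0.415). Pairs with MCHM at 500 mg/kg are given without a test. These intervals include 0 and also include differences of more than 0.8 units, so they do not show that the chemicals acted alike on Acsm2. The response at 1000 mg/kg PPH has no counterpart at that dose of the other chemicals.

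In kidney the widest difference was that of Acsm3 between PPH and crude MCHM at 500 mg/kg, 0.88 (0.37 to 1.39). Its limma p was 0.00396 when adjusted over those pairs alone and 0.114 when adjusted over all genes, of which 0.0956% passed. The PPH kidneys there had 11.35, 11.70 and 12.51, against 11.05 to 11.58 in their vehicle kidneys, and without the kidney at 12.51 (replicate 230) the difference was 0.55. The Acsm3 difference between PPH and MCHM was 0.60 (0.14 to 1.06; p over the 4 pairs = 0.0234, over all genes = 0.632), and 0.27 without that kidney. None of the other pairs of the 4 genes in either tissue passed over the pairs or over all genes with limma. The adjustment over the 4 pairs was made for each gene and tissue alone, not over the 4 genes or both tissues. The unadjusted limma p of Acsm5 in kidney for PPH and MCHM was 0.016. Over all genes in kidney, 762 of 11501 for PPH and MCHM and 1098 of 11501 for PPH and crude MCHM had an unadjusted p under 0.05. Across all genes, 0.0344% passed in liver for PPH and MCHM. In kidney 0.0261% passed for MCHM and crude MCHM at 500 mg/kg and 0.0956% for PPH and crude MCHM. In the remaining pairs of both tissues 0% passed.

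The vehicle groups of the sets differed from each other in kidney. Acsm5 had 6.84, 6.89, 6.89, 7.12 and 7.26 in PPH vehicle kidneys and 6.85, 6.85 and 6.94 in crude MCHM vehicle kidneys, against 6.08, 6.30, 6.47, 6.57 and 6.70 in MCHM vehicle kidneys. The PPH and crude MCHM vehicle kidneys all lay above the MCHM ones, by 0.58 (SE 0.12, limma adjusted p = 0.000112) and 0.46 (SE 0.13, adjusted p = 0.0101; 0.0539 with only the vehicle groups in the model). Glyat had 11.16, 11.16, 11.33, 11.34 and 11.39 in PPH vehicle kidneys, against 10.87, 10.96, 10.99, 11.03 and 11.14 in MCHM vehicle kidneys, a difference of 0.27 (SE 0.06, adjusted p = 0.000678).

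Differences of this kind were common: 31.5% of genes passed between PPH and MCHM vehicle kidneys, 22.3% between crude MCHM and MCHM vehicle kidneys and 1.76% between PPH and crude MCHM ones, and in vehicle livers the shares were 17.4%, 11.4% and 2.55%. None of the 4 genes passed between vehicle livers. Without the MCHM vehicle kidney that carried liver markers (replicate 4) the Acsm5 differences were 0.61 for PPH and 0.49 for crude MCHM, and the Glyat difference for PPH was 0.26. What separates the sets (time, rats, array processing) was not given, and set and chemical cannot be told apart except against each set's own vehicle.

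The other genes of the route were read from lists made with earlier results of these data known. At 1000 mg/kg PPH in liver 11 of the 96 pathway genes tested rose and 3 fell, beside 199 called (1.75%), 61 of them falls and the others rises, among all 11342 genes tested. In that comparison 2 of 14 other acyl-CoA synthetases tested rose and none fell, Slc27a5, the bile acid CoA ligase (0.42, adjusted p = 0.0139), and Acss2, the cytosolic acetyl-CoA synthetase (0.70, adjusted p = 0.0282). The Acsm1 difference was -0.05 and did not pass. Of 11 other amino acid acyltransferases and thioesterases 2 rose: Glyatl2, a relative of Glyat, and Acot13, a thioesterase (0.35, adjusted p = 0.0478). Glyatl2 had 8.77, 9.16, 9.33 and 9.33 in treated livers, against 8.14, 8.29, 8.31, 8.31 and 8.37 in vehicle livers, a rise of 0.86 (SE 0.11, adjusted p = 9.99e-05) with no overlap.

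The enzymes that turn alcohols and aldehydes into carboxylic acids had 3 rises and 1 fall among 11 tested at that dose, where 1.75% of all genes passed. Adh7, an alcohol dehydrogenase, rose by 1.498 (adjusted p = 0.00356), Aldh1a1, which oxidises retinaldehyde, by 0.58 (0.0211) and Aox1, aldehyde oxidase, by 0.51 (0.00267), while Aldh1b1, a mitochondrial aldehyde dehydrogenase named after its value was seen, fell by 1.297 (0.0256). One of 16 glycine genes rose, Amt of the glycine cleavage system (0.25, 0.0208), and 1 of 14 coenzyme A genes, Enpp3 (0.50, 0.0259). Among 13 organic anion transporters Slc17a3 rose by 0.60 (0.00549), and Slc22a8 and Abcc2 fell by 0.60 and 0.41 (0.00976 and 0.0451). List medians in this comparison lay between -0.09 and 0.18, against 0.03 over all genes tested. The median over Acsm2, Acsm3, Acsm5 and Glyat was 0.54, with Acsm2 alone called. These 4 genes were picked with earlier results known, so their median is a description.

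With MCHM and crude MCHM at 500 mg/kg in liver the one call among these 96 pathway genes was Eci1, an isomerase of fatty acid beta-oxidation (0.64, adjusted p = 0.0488 with MCHM, and 0.87, adjusted p = 0.000115 with crude MCHM; 0.50, adjusted p = 0.0385 with PPH), where 0.512% and 0.675% of all genes passed with MCHM and crude MCHM. Among cell type markers in these livers Ccl5, a lymphocyte marker, fell by 0.60 with MCHM and by 0.51 with crude MCHM. Jchain, a plasma cell marker, and Apoa1, a hepatocyte marker, fell by 0.81 and 0.31 with crude MCHM, and Apoa1 fell by 0.28 with PPH. These were 1 of 6 lymphocyte markers tested with MCHM (list median 0.04) and 2 of 6 with crude MCHM (median -0.14). Apoa1 was 1 of 7 hepatocyte markers, with list medians of -0.03 with crude MCHM and -0.07 with PPH. The part of these single markers in the Acsm2 values was not tested. In kidney the pathway lists had no calls with MCHM or crude MCHM. At 1000 mg/kg PPH in kidney 8 of 95 pathway genes tested rose and none fell, beside 78 risen and 151 fallen (2.03% called) among all 11264 genes tested: Acsl3 (0.39) and Slc27a2 (0.24), both fatty acyl-CoA synthetases, Nat8, a cysteine conjugate N-acetyltransferase (0.49), Dmgdh (0.53) and Gnmt (0.45) of glycine metabolism, and Decr1 (0.52), Acadm (0.28) and Acad11 (0.27) of beta-oxidation, with adjusted p-values of 0.00148 to 0.0436. The 7 fibroblast and 4 adipocyte markers had medians of -0.50 and -0.84 in these PPH kidneys, with none called. Of 6 macrophage markers Adgre1 fell by 0.80 (adjusted p = 0.0204), and of the hepatocyte zone markers Pck1, which the kidney also expresses, rose by 0.52 (1 of 5 periportal) and Cyp2e1 by 0.76 (1 of 4 pericentral, median 0.41). The 9 proximal tubule markers had a median of -0.05 with none called. The part of these markers in the rises was not tested. In liver none of 7 proximal tubule markers tested rose at any of the 3 top doses, with medians of -0.10 to -0.01, and Slc22a8 fell with PPH.

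Across the 81 livers, each array taken as its value minus the vehicle mean of its own set, Acsm2 and Acsm5 varied together (Pearson r = 0.61, and 0.48 after the dose group means were removed). The pair shares arrays, sets and dose groups, so this is a description. Acsm2 with Glyat had r = 0.24 and Acsm2 with Acsm3 r = 0.15, and Acsm3 was near 0 with Acsm5 (0.09) and Glyat (0.01). Across the 69 kidneys the highest value between the 4 genes was that of Acsm2 with Acsm3 (0.46), while Acsm2 with Acsm5 had -0.08.

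The genes most like Acsm2 across livers, among 11507 ranked, were Tm7sf2, a sterol reductase (r = 0.71), Gsta3, a glutathione transferase (0.71), and Ces2c, a carboxylesterase (0.70). Their top-dose changes with MCHM, crude MCHM and PPH were 0.75, 0.51 and 0.62 for Tm7sf2, 0.97, 1.19 and 2.65 for Gsta3, and 0.81, 0.85 and 1.28 for Ces2c. Once group means were removed, r was 0.29 with Tm7sf2, 0.48 with Gsta3 and 0.42 with Ces2c. Across kidneys the genes most like Acsm2 were Tmem144 (0.79), Slc22a5, the carnitine transporter (0.79), and Fmo1, a flavin monooxygenase (0.79), and these stayed at 0.77 to 0.85 within groups.

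Acsm3 was most like Eri2 in both tissues, the gene model that encloses it, with r = 0.77 across livers and 0.86 across kidneys. Eri2 was read by 2 probe sets, and the dimmer had r = 0.40 in liver and 0.21 in kidney with Acsm3. Whether the brighter Eri2 probe set also reads Acsm3 RNA was not tested. Next after Eri2 came Spa17 (0.55) and Prpsap2 (0.54) in liver and Agxt2, a mitochondrial aminotransferase (0.61), and Slc16a9 (0.57) in kidney. Once group means were removed, r was 0.71 with Eri2, 0.43 with Spa17 and 0.44 with Prpsap2 in liver. In kidney it was 0.81 with Eri2, 0.51 with Agxt2 and 0.38 with Slc16a9.

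Acsm5 across livers was most like Aldh1a1 (0.67), Cyp2j4, a cytochrome P450 (0.65), and Sulf2, a heparan sulfatase (0.63), which stayed at 0.57 to 0.62 within groups. In kidneys its nearest were Alkbh7 (0.66), Zfp593 (0.63) and Nsmce1 (0.61), which fell to 0.50, 0.44 and 0.49 within groups. Glyat was nearest to Inmt, an N-methyltransferase (0.56), Gabarapl1 (0.54) and Cyp2j3 (0.54) in livers and to Man1a1 (0.74), Smlr1 (0.73) and Atp6v1f (0.71) in kidneys. The 3 genes named per gene and tissue were those with the highest r, and no 2 of the 4 genes shared one.

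**Figure D5:**
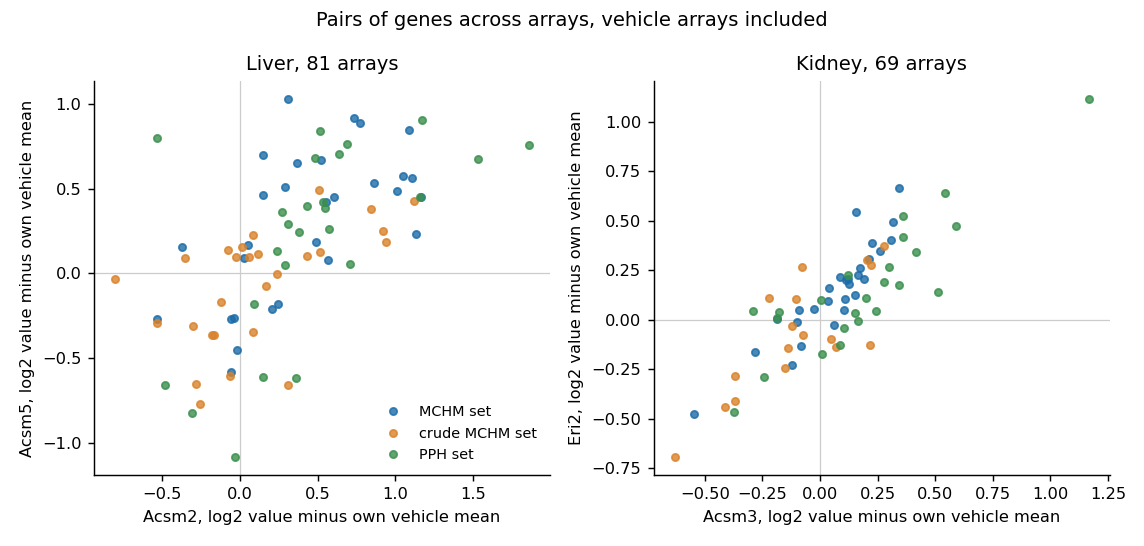
Acsm5 against Acsm2 across 81 livers (left) and Eri2, brighter probe set, against Acsm3 across 69 kidneys (right), each axis a log2 value minus the mean of the set's own vehicle arrays, 1 point per array coloured by set. Pearson r is 0.61 on the left and 0.86 on the right, and 1 PPH kidney lies above 1 on both axes on the right.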

How the data were processed

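The authors deposited log2 values made by RMA (robust multi-array averaging, which corrects background, normalises by quantile and summarises probes), per the submitters' processing notes; version, software and joint processing of the tissues are not given in the sources used here. Of 31099 probe sets 20832 carried 1 gene symbol, 436 several and 9831 none here, and only the first were used. Symbols were brought up to date through RefSeq gene IDs. Per gene and tissue the brightest probe set was kept, and a gene was tested when 3 or more arrays exceeded the tissue's 40th percentile (liver 4.69, kidney 4.66); Acsm2, Acsm3, Acsm5 and Glyat passed in all fits. Each tissue and chemical was fitted with limma 3.58.1 (lmFit, eBayes, two-sided) in R 4.3.3 (data.table, version 1.17.8), checked on simulated data, and a gene was called where the Benjamini-Hochberg p was under 0.05. Differences between chemicals, vehicle groups and tissues were contrasts in fits over all groups concerned. Members and lists were chosen with earlier results of these data known. Pathway genes named were up to 3 called per list and comparison, by adjusted p, and genes of like pattern the 3 with the highest r. The labels do not state whether same-numbered liver and kidney samples come from 1 rat. The number of arrays limits the precision. Alternatives were no filter, the mean of probe sets, renormalisation, array weights, other fits and leaving out each array.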

Additional observations from a re-analysis of the deposited data

Results flagged for a closer look

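At 1000 mg/kg PPH the Acsm2 change in kidney minus that in liver was -1.47 (limma, adjusted p = 0.000763, where 0.749% of genes passed). All 4 treated livers lay above all vehicle livers, while treated and vehicle kidneys overlapped. How many of all genes had groups without overlap was not counted. Acsm2 was picked with earlier results of these data known, so the call is not independent support for a response. The Acsm2 level was at the 99.6th percentile of genes in vehicle kidneys and the 53.9th in vehicle livers, and the part of level was not tested.

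Single arrays stood apart from the rest of their group in 13 of 120 gene and group pairs that held 4 or 5 arrays, by the gap to the nearest array relative to the group's range. Chance gives about 1 in 20 (5%) such pairs, and the cause of these values was not tested. In liver they were Acsm2 at 7.21 (PPH 100 mg/kg), Acsm3 at 9.18 (crude MCHM 500 mg/kg), 9.72 (PPH 10 mg/kg) and 9.90 (PPH 100 mg/kg), and Acsm5 at 7.51 (crude MCHM vehicle). Liver Glyat stood at 8.94 (crude MCHM 100 mg/kg) and 9.42 (crude MCHM 300 mg/kg). Replicate 31 of MCHM 100 mg/kg was the lowest of its group for Acsm5 (7.29) and Glyat (9.31) in liver and for Acsm3 (11.36) in kidney. In kidney the others were Acsm5 at 7.06 (MCHM 500 mg/kg, replicate 40) and Glyat at 11.15 (MCHM 300 mg/kg, replicate 35) and 11.25 (PPH 1000 mg/kg).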

How the results depend on the processing

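The number of the 4 genes called changed in 4 comparisons. In crude MCHM livers at 500 mg/kg it was 0 and became 1 with array weights (Acsm2 0.83, adjusted p = 0.0266). Between crude MCHM and MCHM vehicle kidneys it was 1 (Acsm5), 0 with only the groups compared in the model, and between 1 and 2 as arrays were left out (2 without MCHM vehicle replicate 3, Glyat 0.21). The other 2 rest on Acsm2 at 500 mg/kg MCHM, which was chosen with its liver values known, so their counts describe the fits and are not read as calls or as stability. In MCHM livers the count was 1, 0 without the filter on low values, and between 0 and 1 as arrays were left out (0 without vehicle replicate 3, 6, 7 or 8 or treated replicate 40, 42 or 43). For the MCHM tissue difference it was 0, 1 with the replicate block (Acsm2 -1.03), and between 0 and 1 as arrays were left out (1 without liver vehicle replicate 4 or treated liver replicate 41). The causes were not tested.

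Deviations of same-numbered liver and kidney samples had median correlations of 0.132 in 27 MCHM pairs, 0.095 in 16 crude MCHM pairs and 0.128 in 22 PPH pairs. Values over 0.1 were found in 20, 7 and 16 of these pairs. Other-numbered samples of the same dose had medians of -0.034, -0.032 and -0.043. Group means were removed first, which makes other-numbered values negative when same-numbered ones are positive. The other-numbered medians are therefore not an independent comparison. Same-numbered samples were weakly correlated, and the labels do not state whether they share a rat. The main fits did not pair them. The replicate block moved the count of genes called to 17, against 9 without it, for MCHM, to 48, against 7, for crude MCHM, and to 152, against 89, for PPH, and changed no other call of the 4 genes.

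Of 773 values of single genes under alternatives, 737 kept their direction and side of the threshold, 22 changed sign, and none of those was a called value. The sign changes were of values near 0. Acsm3 was -0.014 after renormalisation and -0.017 with array weights in crude MCHM livers at 500 mg/kg, where leaving out arrays gave -0.019 to 0.10. Its tissue difference at 1000 mg/kg PPH was 0.014 after renormalisation and -0.11 to 0.088 as arrays were left out, and its MCHM kidney change -0.23 to 0.066. Acsm5 was 0.042 after renormalisation in crude MCHM kidneys and -0.13 to 0.10 as arrays were left out, and -0.028 to 0.078 in PPH kidneys. Glyat was -0.10 to 0.014 in crude MCHM kidneys. Group sizes of 2 to 5 limit what can be seen, and signal over background of single probes was not analysed here.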
